A study of Saccharomyces cerevisiae with 16 samples.

Results

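The probes described here read below their starting level during the first 8 h after a transfer of budding yeast to medium with 500 µM phosphate, and above it at 23 h, in both strains of the series. They are 127 of the 5787 probes with a value in all 16 samples (2.19%), out of 6255 probes in the table. A probe was taken if its early change, the mean over 1, 5 and 8 h of its log2 value minus the mean of the Cy3 pair at 0 h, was -0.4 or lower in each strain. Its change at 23 h had to be 1 or higher in each strain (2-fold), and the strains had to be close at 23 h, which left differences of up to 1.24 and shut out those from 1.26. The measured values themselves thus chose the probes. Their levels against 0 h are a description, with no test read from them. A gene name was listed for 36 of the 127 probes, and the other 91 are given as counts and ranges.

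RNA came from Saccharomyces cerevisiae of 2 strains, a wild type (WT) and a strain labelled as having abundant PHO84c, after the high-affinity phosphate transporter Pho84. How PHO84c was built is not given in the sources used here, and no probe is listed under PHO84. Log-phase cells in synthetic complete medium were washed and diluted into that medium at 0.5 mM phosphate. Each strain gave 4 samples at 0 h, from the Cy3 and Cy5 channels of 2 arrays, and then a single Cy3 sample per time at 1, 5, 8 and 23 h. A treatment tag gives 0.5 M instead of 0.5 mM, against the titles and the growth protocol. No sample had another phosphate level, so effects of phosphate, growth and time in culture cannot be told apart. The samples of each strain are listed under that strain's own pair of scans, so strain and scan cannot be told apart either. WT and PHO84c samples of a given time also carry 1 array block number, so time and block number cannot be told apart.

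Budding yeast takes up phosphate through low-affinity and high-affinity transporters, and scarcity turns on the Pho4 regulon, which includes PHO84. Fresh medium makes cells restart growth and make ribosomes. As nutrients run down, cells slow ribosome synthesis, turn to respiration and enter stationary phase with a changed set of transcripts. Whether the low and then high course is linked to either of these phases was not tested.

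Each sample had a value for 6125 to 6231 probes. The standard deviation over probes was 0.0772 to 0.142 (log2) in the samples at 0 h. It was 0.464, 0.40 and 0.369 in WT at 1, 5 and 8 h, 0.439, 0.374 and 0.325 in PHO84c, and 1.54 and 1.68 at 23 h. Values are log2 ratios to the strain's own 0 h samples, so a level cannot be compared between strains or between probes, and in bulk RNA fewer cells of a kind cannot be told from less RNA per cell. No label says that the 0 h samples are separate cultures. The p-values below therefore reflect the variation among these samples alone, possibly technical, and each later sample, alone in its group, was assumed to vary like them. Each gene name below means the probe that the platform annotation pairs with that gene. Names should be read with care: at 23 h the probe for RPL11B stood at 3.99 (WT) and 3.49 (PHO84c), and the probe for its near-identical copy RPL11A at -1.39 and -1.52.

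Over the 127 probes the median WT change was -1.09 at 1 h, -0.67 at 5 h and -0.63 at 8 h, and 2.27 at 23 h. In PHO84c the medians were -0.73, -0.66, -0.57 and 2.57. All 5787 probes had medians of -0.21 and -0.19 at 23 h. Single values ran from -4.44 to -0.21 at 1 h, -4.15 to 0.22 at 5 h and -3.37 to 0.69 at 8 h in WT, and from -2.30 to -0.12, -3.42 to -0.09 and -2.55 to 0.21 in PHO84c. At 23 h they ran from 1.04 to 5.33 in WT and from 1.09 to 5.46 in PHO84c. The late level reached 4 or more in 16 probes in WT and in 22 in PHO84c. The early mean was -1 or lower in 33 and 19 probes. Every one of the early values was -0.4 or lower in 84 probes in WT, in 66 in PHO84c and in 55 in both. A value above 0 at 5 or 8 h occurred in 10 probes in WT and, at 8 h alone, in 4 in PHO84c.

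**Figure D1:**
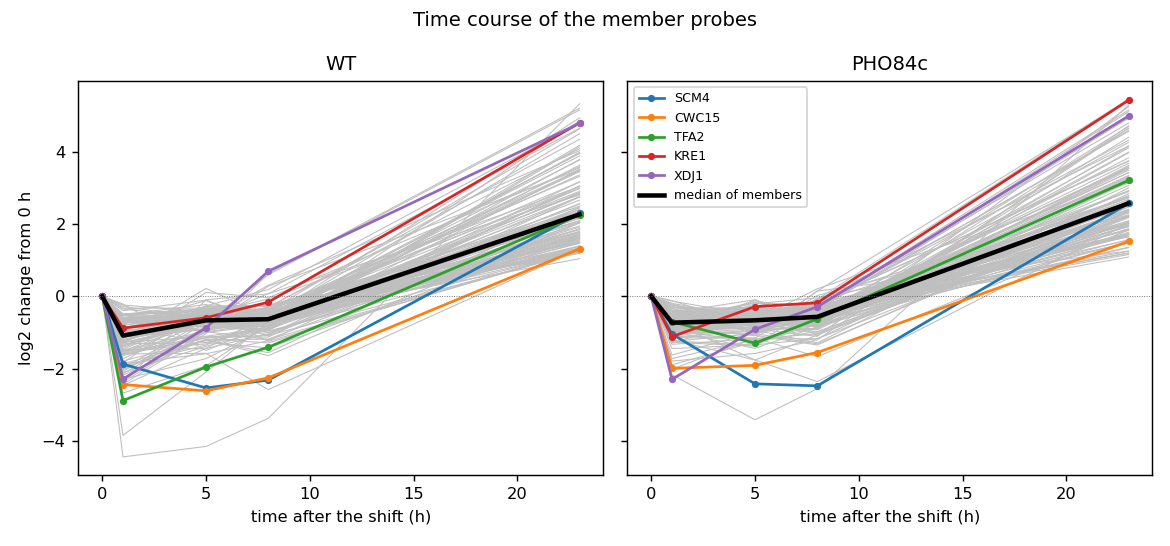
Log2 change from 0 h (vertical axis) against time after the shift in hours (horizontal axis) in WT (left) and PHO84c (right), with 1 grey line for each of the 127 probes, their median in black and 5 named probes in colour. The median moves from -1.09 at 1 h to 2.27 at 23 h in WT and from -0.73 to 2.57 in PHO84c, and SCM4 and CWC15 stay lowest among the coloured lines at 8 h.

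Calls against 0 h, given as background to the choice and not as a result, needed a limma adjusted p under 0.05 over all tested probes and a 2-fold change. In WT 70, 27 and 20 of the 127 probes were called lower at 1, 5 and 8 h, against 2.65%, 1.32% and 1.3% of all probes tested. In PHO84c 29, 23 and 16 were called lower, against 1.29%, 0.926% and 0.702%. All 127 were called higher at 23 h in both strains and 0 lower, where 20.8% (WT) and 23.2% (PHO84c) of all probes were higher and 23.8% and 27.5% lower. The standard error of a change lay between 0.0773 and 0.345. Among the named probes, CWC15 and SCM4 were called lower at all of 1, 5 and 8 h in both strains. The limits were also taken in 1 strain alone, as a description, since the choice used the values of both strains. The early and late limits taken in WT alone gave 233 probes. Of these, 229 were also 1 or higher at 23 h in PHO84c (98.3%), 139 also had an early mean of -0.4 or lower there (59.7%), and 215 had one below 0 (92.3%). Of all 5787 probes, 23.6% met that late limit in PHO84c, 8.55% that early limit, and 49.8% had an early mean below 0. Taken in PHO84c alone they gave 224 probes, of which 184 met the late limit in WT (82.1%), 163 the early limit (72.8%) and 213 had an early mean below 0 (95.1%), against 21.1%, 8.80% and 49.0% of all probes in WT. Probes that met a single limit in 1 strain also often met it in the other. Of the 1223 probes at 1 or higher at 23 h in WT and the 1363 in PHO84c, 1081 were so in both. Of the 509 (WT) and 495 (PHO84c) with an early mean of -0.4 or lower, 277 were so in both. The shares above are thus not read as a trait of the low and then high course. Both choices met in 137 probes, and the limit on the strain difference at 23 h removed 10 of them.

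Near the limits the choice is fine-grained. The weakest early mean kept was -0.40 in both strains (that of CKB1 in PHO84c), and the nearest one outside was also -0.40 when rounded (-0.3971 in WT and -0.399 in PHO84c). The lowest late change kept was 1.04 in WT and 1.09 in PHO84c, with 0.97 and 0.78 as the nearest outside. Over all 5787 probes, 277 were early low in both strains, and 1081 (18.7%) stood at 1 or higher at 23 h in both. These counts depend on the unequal limits and on the wider spread at 23 h, so neither part of the course is read as the rarer. Of the 1017 probes that were high at 23 h in both strains within the limit on the strain difference, 12.5% also met the early limit. Of the 277 probes early low in both strains, 137 met the late limit (49.5%), and the 127 that also met the limit on the strain difference were 45.8%. The other 150 early-low probes had median changes at 23 h of -0.36 in WT and 0.18 in PHO84c, and 33 of them stood at -1 or lower in both strains.

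**Figure D2:**
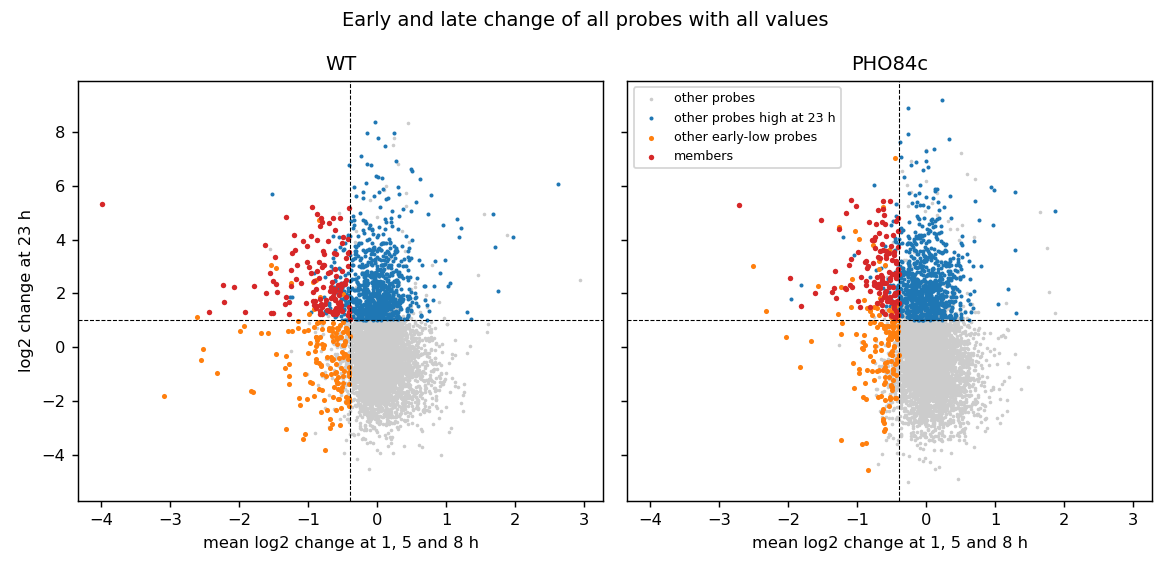
Change at 23 h (vertical axis, log2) against the mean change at 1, 5 and 8 h (horizontal axis, log2) for each of 5787 probes in WT (left) and PHO84c (right), with dashed lines at the limits of -0.4 and 1. The 127 probes, in red, lie in the upper left corner in both strains, with 1 probe far to the left at -3.99 in WT and -2.71 in PHO84c. They share the corner with other probes, as 233 probes met both limits in WT and 224 in PHO84c.

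The early and late values were also compared across the strains, within the range that the choice left. Across the 127 probes the early mean in WT and the change at 23 h in PHO84c had a Pearson r of -0.187 (Spearman's rho -0.241), and the early mean in PHO84c and the change at 23 h in WT had r -0.109 (rho -0.0402). Over all 5787 probes these were -0.213 (rho -0.207) and -0.123 (rho -0.121). These pairs share no sample, but the choice limited all of the values within the 127. The early means of the strains had r 0.757 (rho 0.552), and the changes at 23 h r 0.919 (rho 0.880). Over all 5787 probes these last 2 values were 0.669 (rho 0.618) and 0.935 (rho 0.919). Each is a description across probes, which share samples and are not independent replicates. The probe with the lowest early means, which has no listed name and the number 7771, also stood among the highest at 23 h, with early means of -3.99 and -2.71 and late changes of 5.33 in WT (40.2-fold) and 5.29 in PHO84c (39.2-fold).

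The 36 named probes were sorted by the textbook roles of the genes after their values were known, which gave 8 groups. Their early means had a median of -0.81 in WT and -0.60 in PHO84c, and their late changes a median of 2.38 and 2.73. The 91 unnamed probes had medians of -0.72 and -0.63 early and 2.18 and 2.48 late. In the account of the groups below, a pair of values is WT and then PHO84c, each a log2 change from 0 h.

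**Figure D3:**
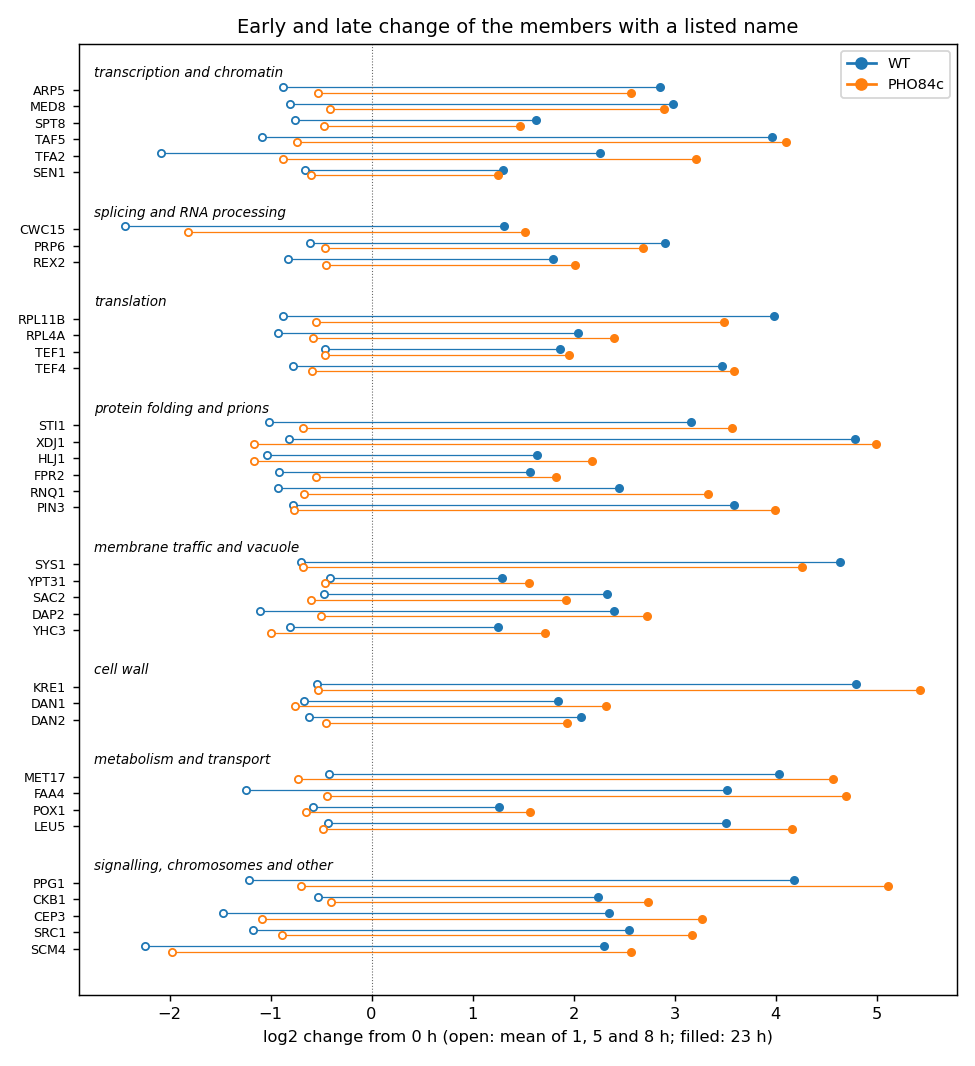
Log2 change from 0 h (horizontal axis) of the 36 named probes, in rows by role group, in WT (blue) and PHO84c (orange). Open circles are means over 1, 5 and 8 h and filled circles are single samples at 23 h; KRE1 in PHO84c lies farthest right at 5.43, and CWC15 in WT farthest left at -2.44.

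Transcription and chromatin gave 6 of the named probes. TFA2, the small subunit of the general factor TFIIE, stood at 0.075, -0.036, 0.066 and -0.058 in the 4 WT samples at 0 h, and at -2.87, -1.94, -1.39 and 2.28 at 1, 5, 8 and 23 h. In PHO84c it stood at 0.011, -0.0072, -0.10 and 0.096 at 0 h and then at -0.70, -1.29, -0.62 and 3.21. Every later sample lay outside the range of the 0 h samples in both strains, below it to 8 h and above it at 23 h, and the WT sample at 1 h was the lowest of all. TAF5, a subunit of both TFIID and SAGA, had an early mean of -1.08 and -0.74 and stood at 3.96 and 4.11 at 23 h (15.6-fold and 17.2-fold). MED8 belongs to Mediator, the bridge between activators and RNA polymerase II. It stood at -0.81 and -0.41 early and at 2.99 and 2.90 late, close to ARP5 of the INO80 chromatin remodeller at 2.85 and 2.57. SPT8, another SAGA subunit, and SEN1, a helicase that ends transcription of short RNAs, were the lowest of these at 23 h, with 1.62 and 1.47 for SPT8 and 1.30 and 1.254 for SEN1. SEN1 stood at 0.15 at 8 h in PHO84c, already above its 0 h level, and at -0.61 in WT. A list of 41 probes of chromatin and transcription genes held 5 of the 127 among the 40 with all values. In that list 12 of 41 probes were called higher (29.3%) and 4 lower (9.76%) at 23 h in WT, and 14 higher (34.1%) and 7 lower (17.1%) in PHO84c. Over all probes tested the shares were 20.8% and 23.8% in WT, then 23.2% and 27.5% for PHO84c, and these list counts and those below hold the chosen probes themselves. TFA1, which encodes the partner of Tfa2 in TFIIE, stood at -0.99 and -0.79 at 23 h, on the other side of 0.

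Splicing and RNA processing gave 3 probes. CWC15, a protein bound to the active spliceosome, stood at 0.097, -0.046, 0.083 and -0.075 in WT at 0 h and at -2.41, -2.59, -2.23 and 1.34 at 1, 5, 8 and 23 h. In PHO84c the values were -0.033, 0.035, -0.015 and 0.018 at 0 h and then -1.99, -1.91, -1.55 and 1.52. It was evenly low over the early times in both strains, far below the range at 0 h, and among the weaker of the named probes at 23 h (2.49-fold and 2.87-fold). PRP6, a protein of the U4/U6-U5 particle that joins the spliceosome, stood at -0.61 and -0.46 early and at 2.91 and 2.68 late. REX2, an RNA exonuclease, stood at -0.83 and -0.45 early and at 1.80 and 2.02 late. Among the splicing genes with a tested probe, 7 of 31 were called higher at 23 h (22.6%, against 20.8% of all probes) and 10 lower (32.3%, against 23.8%) in WT. In PHO84c 9 of 30 were higher (30%, against 23.2%) and 11 lower (36.7%, against 27.5%).

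Translation gave 4 probes. RPL11B and RPL4A encode proteins of the large ribosomal subunit, TEF1 the elongation factor that brings aminoacyl-tRNA to the ribosome, and TEF4 a subunit of its exchange factor. Early means lay between -0.93 (RPL4A) and -0.46 (TEF1) in WT, and between -0.59 (TEF4) and -0.46 (TEF1) in PHO84c. At 23 h RPL11B stood at 3.99 and 3.49, TEF4 at 3.47 and 3.59, RPL4A at 2.04 and 2.40 and TEF1 at 1.86 and 1.96. RPL4B, the near-identical copy of RPL4A, stood at 0.30 and 0.45 at 23 h and at -0.01 and -0.10 early, so the copies of neither pair read alike. Of 53 probes listed under cytosolic ribosomal protein names, 10 were called higher (18.9%) and 11 lower (20.8%) in WT at 23 h, close to the 20.8% and 23.8% of all probes. In PHO84c 12 of 54 were higher (22.2%) and 14 lower (25.9%), close to 23.2% and 27.5%. None of the 39 complete probes for ribosome biogenesis was among the 127. Of all complete probes with a listed name 2.41% were, so a count of 0 is not read as a result.

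Protein folding and prion-forming proteins gave 6 probes. XDJ1, a J protein that works with Hsp70, stood at -0.084, 0.040, -0.093 and 0.085 in WT at 0 h and at -2.31, -0.89, 0.67 and 4.76 at 1, 5, 8 and 23 h. The PHO84c values were -0.044, 0.045, -0.080 and 0.076 at 0 h and -2.30, -0.91, -0.29 and 4.99 later. XDJ1 read higher at each time after 1 h than at the one before in both strains, and its WT sample at 8 h lay above the 0 h samples. STI1, which passes client proteins from Hsp70 to Hsp90, stood at -1.02 and -0.67 early and at 3.16 and 3.57 late. HLJ1, a J protein of the endoplasmic reticulum membrane, and FPR2, a prolyl isomerase of that compartment, were weaker at 23 h, at 1.64 and 2.18 for HLJ1 and at 1.57 and 1.83 for FPR2. RNQ1, the protein of the PIN+ prion, stood at 2.45 and 3.33, and PIN3, another protein tied to prion formation, at 3.59 and 3.99. Of the 19 probes in the folding list, 7 were called higher (36.8%, against 20.8% of all probes) and 4 lower (21.1%, against 23.8%) at 23 h in WT. In PHO84c 8 were higher (42.1%, against 23.2%) and 5 lower (26.3%, against 27.5%).

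Membrane traffic and the vacuole gave 5 probes. SYS1, a Golgi membrane protein that recruits an Arf-like GTPase, stood at 0.044, -0.018, 0.0028 and 0.0025 in WT at 0 h, then at -1.253, -0.42, -0.39 and 4.65. In PHO84c it stood at 0.023, -0.019, -0.020 and 0.024 at 0 h, then at -0.78, -0.74, -0.51 and 4.26. SYS1 was lowest at 1 h in both strains, and no later sample overlapped the 0 h samples. YPT31, a Rab GTPase of the Golgi, was among the weakest named probes, with an early mean of -0.41 and -0.46 and 1.29 and 1.56 at 23 h. SAC2, a subunit of the GARP complex (VPS52 in the reference annotation), stood at 2.34 and 1.93 at 23 h. DAP2, a vacuolar dipeptidyl aminopeptidase, stood at 2.40 and 2.73, and YHC3, a protein of the vacuolar membrane, at 1.255 and 1.71. None of the 24 complete probes in a separate list of vacuolar and vacuolar sorting genes was among the 127. With 2.41% of all complete named probes among the 127, this too is not read as a result. That list does not hold DAP2 or YHC3, so it is incomplete. It was also matched by the listed names alone, so a gene listed under another name, as SAC2 is, could be missed.

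The cell wall gave 3 probes. KRE1, a wall protein needed for beta-1,6-glucan, stood at 0.033, -0.015, 0.029 and -0.014 in WT at 0 h, at -0.87, -0.58 and -0.15 at 1, 5 and 8 h, and at 4.81 at 23 h. In PHO84c it stood at -0.022, 0.027, 0.022 and -0.0069 at 0 h, at -1.11, -0.28 and -0.18 early and at 5.43 at 23 h. By 8 h KRE1 lay just under the 0 h samples in both strains, and at 23 h it had the highest mean change of the named probes (27.8-fold and 43.0-fold). DAN1, a mannoprotein made when oxygen is absent, stood at -0.67 and -0.76 early and at 1.85 and 2.32 late. DAN2 (PAU23 in the reference annotation) stood at -0.62 and -0.45 early and at 2.07 and 1.94 late. DAN3, of the same family, stood at 1.12 and 1.95 at 23 h but at -0.0049 and -0.16 early. In the cell wall list 11 of 29 probes were called higher (37.9%, against 20.8% of all probes) and 5 lower (17.2%, against 23.8%) at 23 h in WT. In PHO84c 12 of 30 were higher (40.0%, against 23.2%) and 5 lower (16.7%, against 27.5%).

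Metabolism and transport gave 4 probes. MET17, the enzyme that fixes sulfide into homocysteine, stood at -0.90, -0.68 and 0.31 at 1, 5 and 8 h in WT and at -1.30, -0.56 and -0.33 in PHO84c, and at 4.03 and 4.56 at 23 h (16.4-fold and 23.7-fold). LEU5, a mitochondrial carrier needed for coenzyme A to build up in the mitochondrial matrix, stood at 0.28 and -0.10 at 8 h and at 3.51 and 4.16 at 23 h. FAA4, an acyl-CoA synthetase that activates imported fatty acids, had early means of -1.24 and -0.44 and stood at 3.52 and 4.70 at 23 h. POX1, the acyl-CoA oxidase of peroxisomal beta-oxidation, stood at -0.58 and -0.65 early and at 1.26 and 1.56 late. FAA4 had the widest gap between the strains among these, early and late.

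Signalling, chromosome and other proteins made up the last 5 named probes. PPG1, a protein phosphatase related to PP2A, stood at 0.059, -0.029, -0.012 and 0.016 in WT at 0 h and at -1.56, -1.14, -0.89 and 4.19 later. The PHO84c samples read 0.11, -0.11, 0.12 and -0.11 at 0 h and -1.01, -0.74, -0.36 and 5.11 later. Its early values moved toward the 0 h samples with time in both strains without overlapping them. CEP3, a DNA-binding subunit of the kinetochore complex CBF3, stood at 0.052, -0.020, 0.0023 and 0.0032 in WT at 0 h and at -2.09, -1.37, -0.91 and 2.36 later. In PHO84c it stood at -0.034, 0.034, -0.0011 and 0.0045 at 0 h and at -1.23, -1.35, -0.68 and 3.27 later. At each early time CEP3 lay clear of the 0 h samples, and it was lowest at 1 h in WT and at 5 h in PHO84c. SCM4, a mitochondrial outer membrane protein, stood at 0.057, -0.029, -0.079 and 0.074 in WT at 0 h and at -1.86, -2.52, -2.30 and 2.31 later. PHO84c had 0.045, -0.040, -0.011 and 0.014 at 0 h and -1.04, -2.42, -2.47 and 2.57 later. In both strains SCM4 was less low at 1 h than at 5 and 8 h, and no later sample overlapped the 0 h samples. SRC1, a protein of the inner nuclear membrane, stood at -1.18 and -0.89 early and at 2.55 and 3.18 late. CKB1, a regulatory subunit of the protein kinase CK2, stood at 2.24 and 2.74 at 23 h. The probes for the other subunits of that kinase differed from it and from each other at 23 h, with CKB2 at -1.53 and -0.98, CKA1 at -0.03 and 0.71, and CKA2 at 1.77 and 2.23.

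Of 29 gene lists, 9 held at least 1 of the 127 probes and the other 20 held none. The lists with none included the PHO regulon (0 of 6 complete probes), phosphate signalling (0 of 4), general stress (0 of 16) and the respiratory chain (0 of 23). Of all complete probes with a listed name, 36 of 1495 were among the 127 (2.41%). Chromatin and transcription had the most, 5 of 40 (12.5%), and the other lists with a member were splicing (2 of 27), translation factors (2 of 18), ribosomal proteins (2 of 50), folding (2 of 18), cell wall (2 of 28), ER and Golgi transport (YPT31, 1 of 35), amino acid biosynthesis (MET17, 1 of 27) and lipid synthesis (FAA4, 1 of 27). The lists are incomplete: the folding list, for example, does not hold HLJ1 or FPR2. All lists were matched by the listed names alone, so probes listed under another name, as SAC2 and DAN2 are, could be missed. These counts were not tested.

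The early low was not equally deep throughout. In WT 97 of the 127 probes had their lowest early value at 1 h, 14 at 5 h and 16 at 8 h. In PHO84c the counts were 59, 39 and 29. The choice used the plain mean of these times, to which the sample with the widest spread adds the most variation. In both strains that was the sample at 1 h. The values at 1 and 8 h and the strain differences at these times are therefore described, and nothing is read from their calls or from shares of all probes. The other 150 early-low probes, chosen by the same early limit, are given beside them. Their lowest value came at 1 h in 72 and at 5 or 8 h in 44 and 34 in WT, and in 80, 45 and 25 in PHO84c. From 1 to 8 h the 127 probes had a median difference of 0.40 in WT and 0.17 in PHO84c, against 0.13 and 0.17 in the other early-low probes and -0.01 and 0.02 over all 5787. The value at 8 h was above that at 1 h in 104 of the 127 in WT (81.9%), in 88 in PHO84c (69.3%) and in 76 in both (59.8%). In the other early-low probes it was so in 61.3%, 66.7% and 45.3%.

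The difference between 8 h and 1 h was fitted probe by probe with limma over the whole table and called at the adjusted p under 0.05 and 2-fold already used. The choice used both of these samples, so the calls are a description. An excess over the shares of all probes is not read as a result. In WT 24 of the 127 probes were called higher at 8 h than at 1 h (18.9%) and 0 lower, with 1.29% and 0.662% of all probes as background, and so were 16 of the other 150 early-low probes (10.7%). With an unadjusted limma p under 0.05, 74 were higher and 9 lower, together 65.4%, against 24.0% of all probes. In PHO84c 5 of the 127 were called higher and 3 lower, with 0.556% and 1.55% as background, and 6 of the other early-low probes were higher. All of these 5 were also called higher in WT, and XDJ1 was the named one. The difference of XDJ1 was 2.98 ± 0.126 in WT (SE) and 2.01 ± 0.126 in PHO84c. The other named probes called in WT were TFA2 at 1.48 ± 0.160, TAF5 at 1.41 ± 0.175, MET17 at 1.21 ± 0.130, CEP3 at 1.18 ± 0.104, FAA4 at 1.15 ± 0.188 and HLJ1 at 1.01 ± 0.107. Their PHO84c differences, in that order, were 0.08, 0.27, 0.97, 0.55, -0.25 and -0.03, and none was called. SCM4 was the named probe called lower at 8 h in PHO84c, with a difference of -1.43 ± 0.169, and its WT difference was -0.44. The call of FAA4 in WT (limma adjusted p = 0.0148) was lost with the replicate number as a block (adjusted p = 0.0504).

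**Figure D4:**
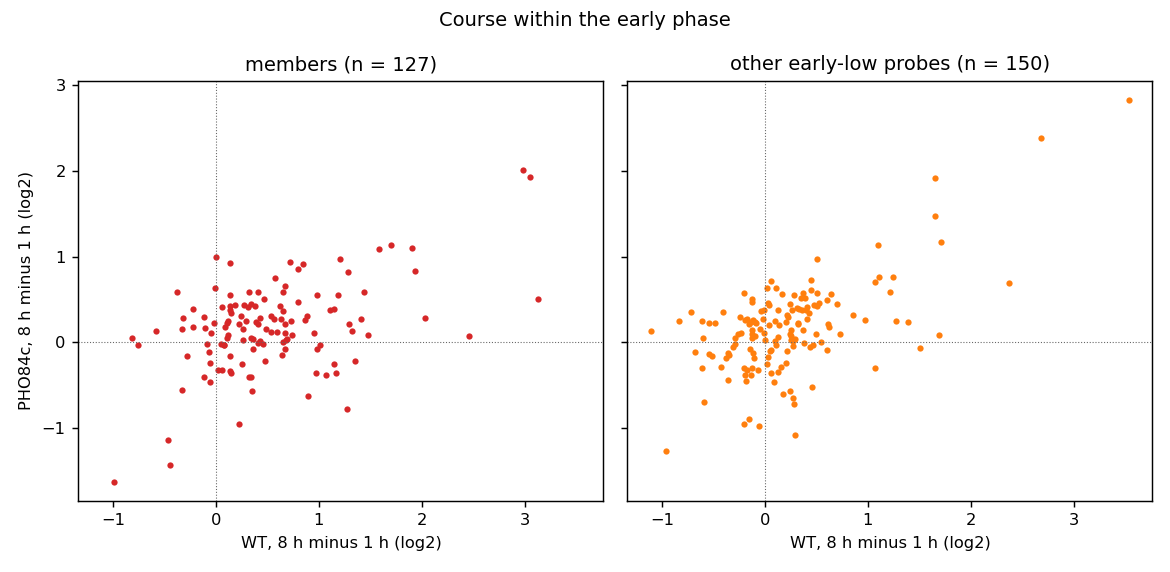
Value at 8 h minus value at 1 h in PHO84c (vertical axis, log2) against the same in WT (horizontal axis, log2), with 1 point for each of the 127 probes (left) and each of the other 150 early-low probes (right). The 127 lie mostly to the right of 0 in WT (104 probes), with XDJ1 and 1 unnamed probe at the upper right, near 3 in WT and 2 in PHO84c.

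The strain difference, PHO84c minus WT, had a median of 0.36 at 1 h over the 127 probes, 0.04 at 5 h, 0.07 at 8 h and 0.31 at 23 h, where the choice limits it. In the other early-low probes the medians were 0.14, 0.09, 0.10 and 0.47, and in the other 890 probes high at 23 h 0.01, -0.01, -0.01 and 0.09. PHO84c was above WT in 99 of the 127 probes at 1 h (78.0%), in 69 at 5 h (54.3%) and in 75 at 8 h (59.1%). In the other early-low probes it was above WT in 88, 87 and 96 of 150. By the interaction contrast in limma, 15 of the 127 probes were called higher in PHO84c at 1 h (11.8%), with 1.87% of all probes as background. It called 5.33% of the other early-low probes and 2.81% of the other probes high at 23 h. A single probe, without a name, was called lower in PHO84c (0.536% of all probes). Each of these calls rests on 1 sample per strain at 1 h, which the choice also used. At 5 h 0 probes were called either way, against 0.261% higher and 0.423% lower in all. With an unadjusted limma p under 0.05 there were 14 higher and 10 lower, 18.9% of the 127 against 17.1% of all probes. At 8 h 0 were called either way, against 0.343% and 0.409%. Unadjusted there were 18 higher and 13 lower, 24.4% of the 127 against 11.5% of all probes.

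TFA2 had the widest strain difference of the named probes at 1 h, with -2.89 in WT, -0.70 in PHO84c and a difference of 2.18 ± 0.196. FAA4 stood at -2.08 in WT and -0.39 in PHO84c, a difference of 1.69 ± 0.230. TAF5 stood at -2.0 and -0.91, a difference of 1.09 ± 0.215. The call of TAF5 (limma adjusted p = 0.0249) was lost with the replicate block (adjusted p = 0.0942) and without the first WT sample at 0 h (0.0537) or the first or second PHO84c sample at 0 h (0.0639 and 0.0566). The unnamed probe 5223 had the widest difference of the 127, at 3.36 ± 0.193. It stood at -3.85 in WT and at -0.48 in PHO84c. Of the 15 probes higher in PHO84c at 1 h, 10 were also among the 24 called higher at 8 h than at 1 h in WT. These counts share the WT sample at 1 h. The overlap over all probes is not given here, so nothing is read from this one. XDJ1, which was higher at 8 h than at 1 h in both strains, stood at -2.29 (WT) and -2.30 (PHO84c) at 1 h, a difference of -0.01. With the replicate block 8 of the 127 probes were called higher in PHO84c at 1 h, in place of 15. The share of all probes in that fit is not given here.

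**Figure D5:**
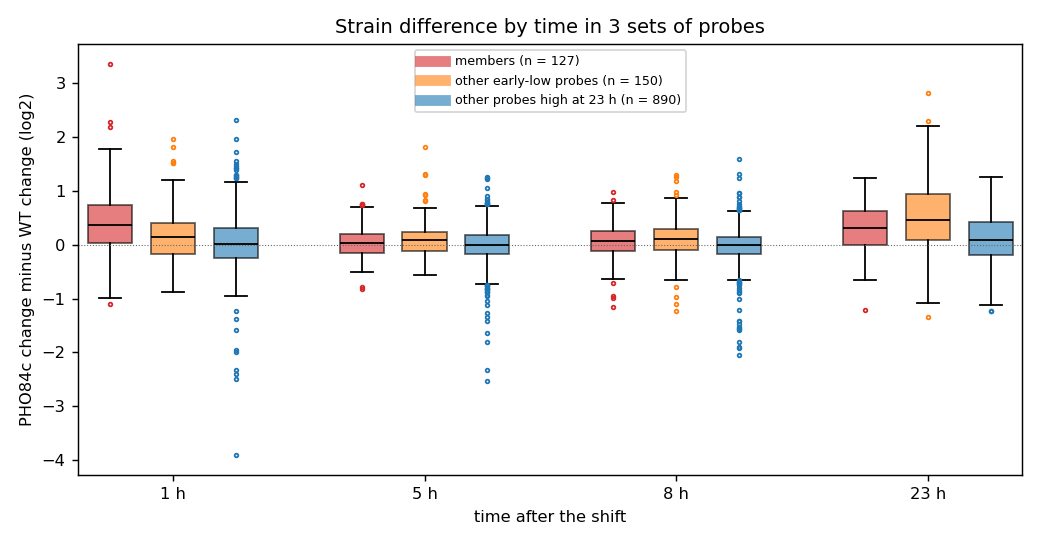
PHO84c change minus WT change (vertical axis, log2) at 1, 5, 8 and 23 h in the 127 probes (red), the other 150 early-low probes (orange) and the other 890 probes high at 23 h (blue). Boxes span the quartiles with the median as a line, whiskers reach 1.5 times the box height and points lie beyond; the red median is 0.36 at 1 h, 0.04 at 5 h and 0.07 at 8 h.

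By 23 h the strain difference was limited by the choice, and its calls are a description. By the same limma contrast 8 of the 127 probes were higher in PHO84c, where 4.7% of all probes were, and 1 lower, where 3.33% were. FAA4 was the named one, at 1.18 above WT. Among the 127, PHO84c was above WT in 94 at 23 h (74.0%), and in 118 of the other 150 early-low probes. FAA4 thus read higher in PHO84c than in WT both at 1 h, where it was less low, and at 23 h, where it was higher above its start. The median absolute difference between the Cy3 samples at 0 h was 0.110 in WT and 0.0946 in PHO84c for them, and 0.104 and 0.0922 over all 5787 probes.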

How the data were processed

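Per the labels' protocols, RNA from a MasterPure purification (Epicentre) was labelled by Low Input Quick Amp (Agilent), hybridised to dual-colour yeast arrays and read with SpotReader. The authors deposited values that were read here as log2 ratios to each strain's own 0 h samples. The base, the reference and the centring were inferred from the values and are not stated in the labels. How the authors merged the scans, corrected background and normalized is not given in the sources used here. There were 0 columns of other series. Ratios carry no signal level, so dim probes could not be told from bright ones, and the number of arrays limits the precision.

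All 16 samples and all probes entered 1 fit in limma 3.58.1 (R 4.3.3, functions lmFit and eBayes). It had a mean per strain and time, a dye term per strain and arrays as random blocks (correlation 0.761, 4 residual degrees of freedom). Benjamini-Hochberg adjustment ran over all probes tested in a comparison. A call needed an adjusted p under 0.05 and a 2-fold change. Rule, counts and medians were computed with pandas 2.3.3 in Python 3.11.15. Same-numbered 0 h samples of the 2 strains had a Pearson r of -0.224 to -0.147. The 2 samples of a dye at 0 h mostly lie on opposite sides of 0. These values therefore cannot settle whether the numbers pair samples across the strains.

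The probes, the gene lists and the tests were chosen with earlier results of these data known. The naming rule took the 12 highest at 23 h, the 12 lowest early and up to 4 per list, which gave 26 names, with every sample's value for 8. RNQ1, DAP2, CKB1, SAC2, DAN2, REX2, FPR2, SPT8, POX1 and SEN1 were added after their values were seen, to account for all 36. The comparison with other early-low probes, the role groups and the partner genes (RPL11A, RPL4B, TFA1, DAN3, CKB2, CKA1, CKA2) were also chosen after values were seen. A planned description of promoter motifs was not run.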

Additional observations from a re-analysis of the deposited data

Results flagged for a closer look

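Of the 36 named probes, 3 were called higher in PHO84c in their change at 1 h by limma's interaction contrast. Of all probes tested, 1.87% were called so. TFA2 differed by 2.18 (PHO84c minus WT), and the 14 alternative fits gave 2.10 to 2.27 with adjusted p from 0.000892 to 0.0188. FAA4 differed by 1.69, with 1.60 to 1.79 and adjusted p from 0.00388 to 0.0486. TAF5 differed by 1.09, with 1.06 to 1.11 and adjusted p from 0.0135 to 0.0942. The call of TAF5 was lost in some of the alternative fits, as given above. In each of the 3 probes the WT sample at 1 h was the lower one. All of these differences rest on 1 sample per strain at 1 h, which the choice of probes also used, so they are not independent of it. Every alternative fit kept the same samples at 1 h, so the ranges cannot show how far those samples would vary. No sample at 0 h stood far from the others in the 52 groups of 4 that were looked at. The 2 samples of a dye at 0 h mostly lie on opposite sides of 0. A lone outlier could thus hardly appear, and nothing is read from its absence.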

How the results depend on the processing

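The count of 127 probes was 127 with all 4 samples at 0 h as reference (126 shared), 133 with each sample centred on its median (125 shared) and 128 with quantile normalization between strains (120 shared). It was 120 to 135 with 1 Cy3 sample at 0 h left out (106 and 115 shared), 175 and 86 with an early limit of -0.3 and -0.5, 132 and 122 with a late limit of 0.8 and 1.2, and 137 with no limit on the strain difference. Requiring each early time at -0.4 or lower left 55. With an adjusted p under 0.05 and no 2-fold limit, the probes lower than 0 h numbered 123, 106 and 101 in WT (12.4%, 9.88% and 9.24% of all probes) and 112, 104 and 83 in PHO84c (16.7%, 10.6% and 6.3%). From 1 to 8 h, 50 were then higher and 4 lower at 8 h in WT (3.99% and 3.31% of all probes), and 32 higher and 10 lower in PHO84c (9.46% and 10.7%). Of the strain differences, 39 then had PHO84c higher and 3 had it lower at 1 h (6.33% and 4.8% of all probes). At 5 h 1 was lower (0.749% of all probes), and at 8 h 2 were higher and 2 lower (0.687% and 0.49%). A common dye term, complete probes alone and robust moderation each gave 1 higher at 5 h and 1 lower at 8 h in place of 0. Leaving out 1 sample at 0 h gave 13 to 15 higher and 1 to 2 lower at 1 h (2 without the first WT sample) and 0 to 1 higher at 8 h (1 without the second WT sample). The shares of all probes in these alternative fits are not given here, so nothing is read from their counts. The causes were not tested.

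With the replicate number of the 0 h samples as a block, 8 strain differences at 1 h were called higher and 0 lower, in place of 15 and 1, and the calls of FAA4 from 1 to 8 h in WT (1.15, adjusted p = 0.0504) and of TAF5 at 1 h (1.09, adjusted p = 0.0942) were lost. Whether the numbers pair samples across the strains is not known. Of the other values in the text, 5 medians moved by more than the spread at 0 h under centring or quantile normalization (the WT median at 23 h of 2.27 became 2.47 and 2.37), and none reversed. With 1 sample at each later time, the spread of the later samples is unknown, and depth cannot be judged because the ratios carry no signal.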
